A study of Homo sapiens with 8 samples.

Results

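The kinases that phosphorylate SR proteins were followed at the RNA level in a pancreatic cancer cell line and in its indisulam-resistant derivative. The genes were chosen by symbol as a kinase group and matched through their Ensembl identifiers. They were 8 of the 60675 genes listed in the count tables, SRPK1, SRPK2, CLK1, CLK2, CLK3, CLK4, PRPF4B and DYRK1A. All 8 were among the 16661 genes with enough reads to be tested.

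SR proteins are splicing regulators with a tail rich in serine and arginine, and phosphorylation of that tail governs where they are in the cell and how they bind the spliceosome. The SRPKs act mainly in the cytoplasm and prepare SR proteins for import into the nucleus, whereas the CLKs act in the nucleus, where further phosphorylation releases SR proteins from nuclear speckles. PRPF4B works on the assembling spliceosome, and DYRK1A is a related nuclear kinase with splicing factors among its substrates.

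RNA sequencing covered 8 libraries of Panc10.05, an established line from a human pancreatic adenocarcinoma, in 4 groups of 2. Parental untreated cells received no drug, and parental indisulam cells had received 2 µM indisulam for 18 h. The resistant line was a population selected on rising concentrations of the drug. Its resistant indisulam group was cultured without interruption on 2 µM, and its resistant untreated group had been taken off the drug for a holiday. No group carries an engineered deletion or transgene by its labels. Indisulam is a sulfonamide that glues the splicing factor RBM39 to the ubiquitin ligase receptor DCAF15, after which RBM39 protein is degraded. The growth and treatment notes name A549, a lung line, while titles and cell line field name Panc10.05, and the titles were followed.

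The libraries held 65266253 to 108002436 reads in genes. The 2 libraries of a group are technical replicates in the study's terms, so each p-value speaks of these cultures and not of independent ones. Of 9 markers of ductal epithelium, EPCAM, CDH1, KRT7, KRT8, KRT18, KRT19 and MUC1 were tested, while TFF1 had at most 11 reads in a library and CLDN18 had 0 reads. All 7 were higher in resistant than in parental untreated cells. PTPRC of leukocytes and the lung genes NKX2-1, SFTPB and SFTPD had 0 reads, SFTPC had at most 1, and COL1A1 of fibroblasts lay between 1.34 and 1.85 reads per 1000000 except in resistant indisulam cells, with 3.96 and 3.89. The part of these marker differences in the results was not tested. RBM39 mRNA rose from 334.2 to 723.8 reads per 1000000 on indisulam in parental cells and from 304.9 to 584.2 in resistant cells (edgeR adjusted p = 4.9e-18 and 7.3e-18). DCAF15 was at 42.0 in parental and 24.2 in resistant untreated cells.

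Because the CLK genes moved in different directions, it mattered whether their reads could be told apart. The stretch below encodes the LAMMER motif, after which the CLK family is also named, and is among the best conserved parts of their kinase domains. It was found by translating the MANE Select coding sequences of GENCODE 44 and leaving the second and last letter of the motif free. Each line gives the coding strand, 5′ to 3′, and capitals mark the 13 of 33 bases at which the 4 genes were not all alike.
CLK1: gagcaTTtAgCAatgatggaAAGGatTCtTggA
CLK2: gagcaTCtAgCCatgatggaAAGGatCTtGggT
CLK3: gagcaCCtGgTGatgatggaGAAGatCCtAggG
CLK4: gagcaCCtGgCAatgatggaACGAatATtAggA

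In GRCh38 these lie at chr2:200854648-200854680 on the minus strand, chr1:155264253-155264285 on the minus strand, chr15:74628619-74628651 on the plus strand and chr5:178605335-178605367 on the minus strand. Each is in exon 11 of 13 of its transcript and is coding throughout. The pairs differed at 6 bases (CLK1 and CLK2) to 10 bases (CLK1 and CLK3). Over whole coding sequences, CLK1 and CLK4 were the closest pair with 77.6% of aligned bases identical, and their longest exact shared run was 34 bases. SRPK1 and SRPK2 shared 68.8% and at most 23 bases in a run, and CLK2 and CLK3 shared 68.8% and at most 17. PRPF4B shared 71.4% with CLK4, 71.3% with CLK1 and 68.0% with each of CLK2 and CLK3. A share of 68.8% was therefore not particular to SRPK or CLK pairs. The lowest share of any kinase pair was 59.2% (SRPK2 and DYRK1A). Runs shared by PRPF4B with CLK1 or CLK4 were at most 11 bases. Processed copies of the genes held few reads, 0 or 1 for CLK2P1 and 2 to 9 for PRPF4BP1 per library.

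The kinases themselves differ in the serine-arginine content that marks their substrates. Neighbouring codon pairs for arginine and serine, in either order, numbered 61 in PRPF4B, 24 in CLK3, 23 in CLK2, 12 in CLK1, 12 in CLK4, 6 in SRPK2, 4 in DYRK1A and 2 in SRPK1. Per 100 codons this ran from 0.31 in SRPK1 to 6.06 in PRPF4B.

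Levels between genes were compared as FPKM, reads per 1000 bases of merged exons and per 1000000 reads. SRPK1 was highest in every group, at 47.9 ± 0.474 FPKM (SD, n = 2) in parental untreated cells and 44.8 to 45.8 in the other groups. PRPF4B followed at 18.7 ± 0.0849 FPKM in parental untreated cells and at 16.8 to 17.2 elsewhere. DYRK1A was lowest in every group, with 1.49 to 1.78 FPKM. Both ends of this order held when the longest transcript or the MANE Select transcript was taken as the length. PRPF4B kept its place with the longest transcript. With the MANE Select transcript CLK3 and CLK1 were above PRPF4B in every group (27.8 and 22.1 against 21.0 FPKM in parental untreated cells).

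With merged exons CLK2 and CLK1 lay between PRPF4B and SRPK2, and the order of CLK2 and CLK1 depended on the group. In parental untreated cells CLK2 stood at 11.5 ± 0.368 FPKM (SD, n = 2) against 7.97 ± 0.0891 for CLK1. In parental indisulam cells CLK2 was at 6.20 ± 0.180 and CLK1 at 7.92 ± 0.0276, so the order was turned. In resistant indisulam cells CLK2 (8.92 ± 0.330) and CLK1 (8.90 ± 0.0453) did not differ beyond the spread of their libraries. With the MANE Select transcript as length CLK1 was the higher of the pair in every group.

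SRPK2 came next with 3.65 to 5.45 FPKM, and CLK4 and CLK3 lay close together at 2.56 to 3.19 and 2.37 to 2.82 FPKM. CLK4 and CLK3 were neighbours at 2.56 ± 0.0396 and 2.62 ± 0.0233 FPKM in parental untreated cells, a gap about as wide as their spread. The place of CLK3 rested on the length taken. Its merged exons span 19697 bases but its MANE Select transcript 1854, and with the latter its FPKM in parental untreated cells was 27.8, second to SRPK1. SRPK2 lay below CLK4 in both resistant groups with the longest or the MANE Select transcript as length.

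**Figure D1:**
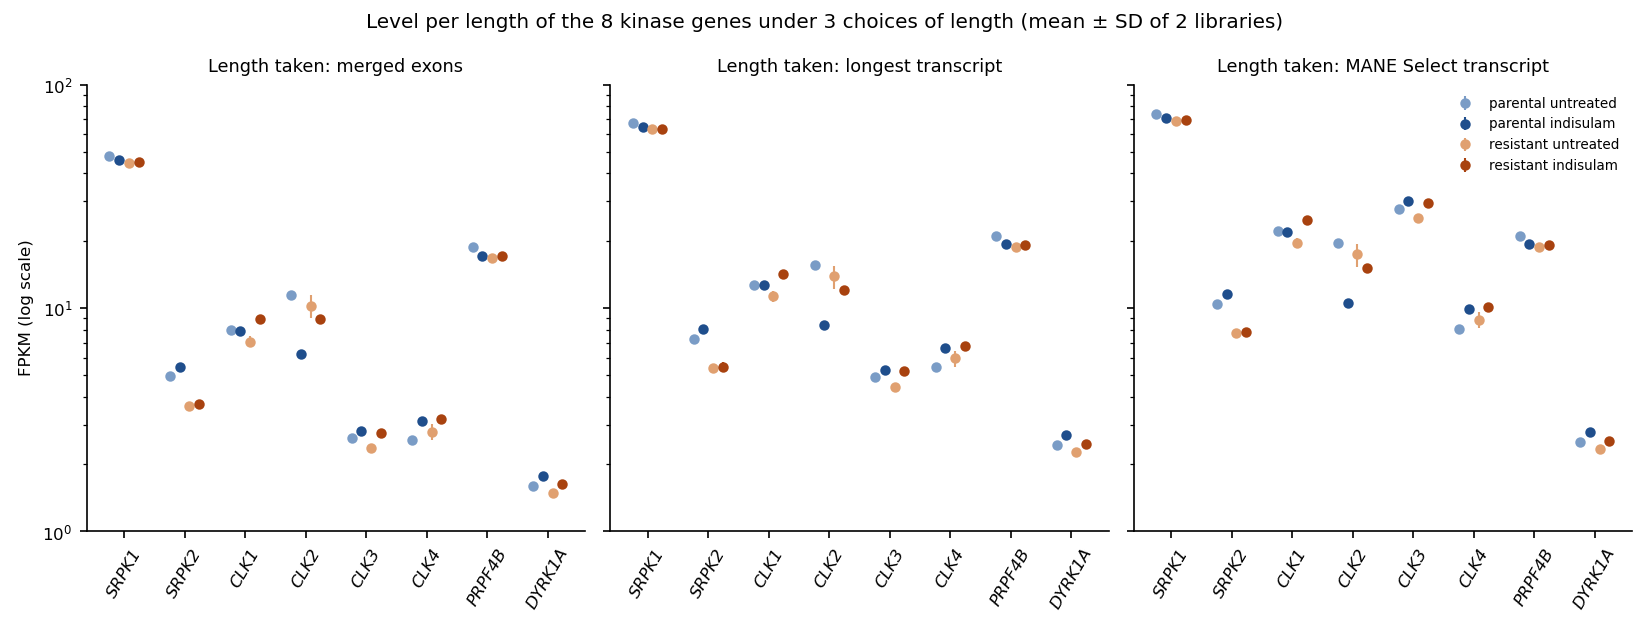
Level of each kinase gene as FPKM on a log axis in the 4 groups (colours; points are means of 2 libraries, bars SD), with 3 definitions of gene length side by side. SRPK1 is at the top and DYRK1A at the bottom in each panel, while CLK3 moves from 2.62 to 27.8 FPKM in parental untreated cells between merged exons and the MANE Select transcript.

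Within a gene, libraries were compared as CPM, reads per 1000000 on the TMM scale (TMM, trimmed mean of M values, evens out composition between libraries). Differences were tested with edgeR's quasi-likelihood test and are given as log2 fold changes. A call means a Benjamini-Hochberg adjusted p under 0.05 over all tested genes. In bulk RNA, fewer cells with a transcript and less transcript per cell cannot be told apart.

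**Figure D2:**
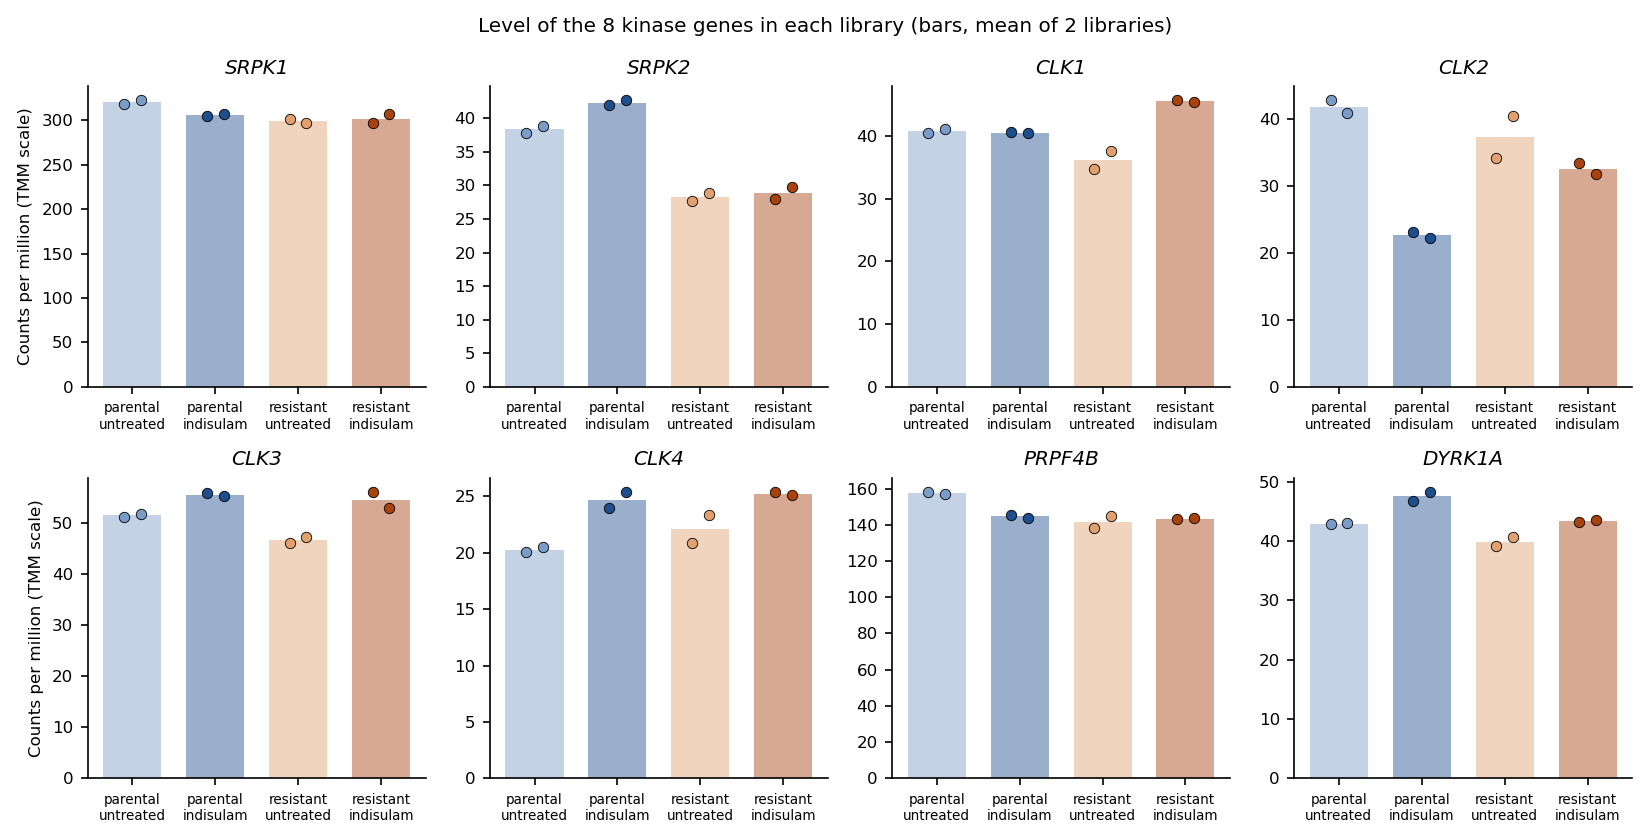
CPM on the TMM scale of the 8 kinase genes in each of the 8 libraries (points) with the mean of each group (bars, from 0). The 2 parental indisulam libraries of CLK2 (23.1 and 22.2) lie below all others, and all 4 resistant libraries of SRPK2 (27.7 to 29.7) lie below all 4 parental ones (37.8 to 42.7).

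The first comparison asked how the kinase genes of drug-naive cells answered indisulam. CLK2, a nuclear kinase of SR proteins, fell to 0.541 of its untreated level in parental cells. CLK4, a close relative of CLK1, rose 1.22-fold, and smaller rises were called for DYRK1A, SRPK2 and CLK3. PRPF4B and SRPK1 fell slightly, and CLK1 was not called. In all, 4 kinases were called higher and 3 lower, so 7 of 8 were called where 58.2% of the tested genes were, 31.6% higher and 26.6% lower. Libraries of the groups did not overlap for 7 of 8 kinases, as for 78.8% of tested genes. The median log2 fold change of the 8 was 0.05, beside 0.01 for all tested genes.

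CLK2 read 42.9 and 41.0 CPM in the parental untreated libraries and 23.1 and 22.2 in the parental indisulam libraries. The groups lay far apart, and both treated libraries were below both untreated ones. The log2 fold change was -0.89 (SE 0.072, 95% interval -1.05 to -0.72), with an edgeR adjusted p of 6.9e-06. It was larger in size than that of 90.4% of tested genes, and CLK2 was the only one of the 8 kinases called past 0.5 log2 units, as 15.8% of tested genes were. The call held in all 16 alternative settings, with values from -0.95 to -0.85.

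HCN3, a channel gene on the opposite strand whose body overlaps that of CLK2 without a shared exon base, moved with it. It was at 19.0 and 19.6 CPM in the untreated and 13.1 and 12.1 in the treated parental libraries, a log2 fold change of -0.62 (adjusted p = 2.4e-09). Without a shared exon base in the annotation used here, reads within HCN3 exons lie outside CLK2 exons under any strand setting. The annotation release of the counting is not given in the sources used here. The part of HCN3 reads in the CLK2 value was not tested. HCN3 held 31.8% of the reads of the pair.

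CLK4 read 20.04 and 20.48 CPM in untreated and 24.0 and 25.4 in treated parental cells. The groups did not overlap, and the log2 fold change of 0.29 (SE 0.047, edgeR adjusted p = 1.8e-05) was called in all 16 alternatives. DYRK1A went from 42.9 and 43.0 to 46.8 and 48.3 CPM, a log2 fold change of 0.15 (adjusted p = 0.00074) that missed the threshold without parental indisulam replicate 2 (0.10, adjusted p = 0.052).

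SRPK2, the less abundant of the SRPKs, went from 37.8 and 38.9 to 41.9 and 42.7 CPM (log2 fold change 0.14, edgeR adjusted p = 0.0022). CLK3 went from 51.3 and 51.9 to 55.9 and 55.3 CPM (0.11, adjusted p = 0.0097). Both rises were small beside CLK2. The CLK3 call was lost without parental untreated replicate 1 (0.10, adjusted p = 0.082), parental indisulam replicate 1 (0.08, adjusted p = 0.12) or parental indisulam replicate 2 (0.09, adjusted p = 0.072). With library totals alone SRPK2 was at 0.08 (adjusted p = 0.094) and CLK3 at 0.04 (adjusted p = 0.32). EDC3 overlaps CLK3 on the opposite strand by 701 exon bases and held 54.85% of the reads of the pair. Its mean went from 57.2 to 64.3 CPM on indisulam in parental cells and from 67.9 to 66.7 in resistant cells. The part of EDC3 reads in the CLK3 values was not tested.

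PRPF4B fell from 158.2 and 157.2 to 145.5 and 143.7 CPM, a difference of -0.12 log2 units (SE 0.029, edgeR adjusted p = 0.00068) called in all 16 alternatives. SRPK1, the most abundant kinase of the group, went from 318.1 and 322.6 to 305.4 and 307.2 CPM. Its log2 fold change of -0.06 (SE 0.027, adjusted p = 0.047) was only just called. The call was lost without parental untreated replicate 1 (-0.07, adjusted p = 0.12), parental untreated replicate 2 (-0.05, adjusted p = 0.27) or parental indisulam replicate 1 (-0.08, adjusted p = 0.07).

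CLK1 read 40.4 and 41.1 CPM untreated and 40.6 and 40.4 treated, and the groups overlapped. Its log2 fold change was -0.01, with a 95% interval from -0.08 to 0.07 and an edgeR adjusted p of 0.85. A correction for GC content and length moved it to -0.12 (adjusted p = 0.0027).

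The second comparison set resistant cells on continuous indisulam against resistant cells on a holiday. CLK1 rose 1.26-fold, CLK3 1.17-fold and CLK4 1.14-fold, and DYRK1A rose slightly. CLK2 was called lower at the edge of the threshold, while SRPK1, SRPK2 and PRPF4B were not called. This gave 4 kinases higher and 1 lower, 5 of 8 called where 50.7% of the tested genes were, 24.9% higher and 25.8% lower. Libraries did not overlap for 5 of 8, as for 73.0% of tested genes, and none was called past 0.5 log2 units (13.8% of tested genes were). The median of the 8 was 0.08, beside 0.01 for all tested genes.

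CLK1, whose kinase activity also controls the splicing of its own transcript, read 34.8 and 37.6 CPM off the drug and 45.7 and 45.4 CPM on it. The groups were clearly separate. Its log2 fold change was 0.33 (SE 0.038, 95% interval 0.25 to 0.41), with an edgeR adjusted p of 1.2e-07, and it was called in all 16 alternatives.

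CLK3 read 46.0 and 47.2 CPM untreated and 56.2 and 53.0 treated, a difference of 0.23 log2 units (SE 0.036, edgeR adjusted p = 1.1e-05) called in all 16 alternatives. CLK4 read 20.9 and 23.4 CPM untreated and 25.4 and 25.1 treated, with a log2 fold change of 0.19 (adjusted p = 0.0021). The lower untreated library carried much of the CLK4 difference, and without resistant untreated replicate 1 the value was 0.11 (adjusted p = 0.083). DYRK1A read 39.1 and 40.7 CPM untreated and 43.2 and 43.6 treated, a log2 fold change of 0.12 (adjusted p = 0.0061) that became 0.10 (adjusted p = 0.067) without the same library.

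CLK2 read 34.3 and 40.6 CPM off the drug and 33.5 and 31.8 CPM on it. The untreated libraries stood wide apart, and the lower of them was close to the treated ones. The log2 fold change was -0.20 (SE 0.072, 95% interval -0.36 to -0.03), with an edgeR adjusted p of 0.049. It was called in 7 of 16 alternatives, and it was -0.08 (adjusted p = 0.17) without resistant untreated replicate 2 but -0.31 (adjusted p = 7.7e-06) without resistant untreated replicate 1. It was also lost without resistant indisulam replicate 1 (-0.24, adjusted p = 0.06), resistant indisulam replicate 2 (-0.16, adjusted p = 0.21) or parental indisulam replicate 2 (-0.20, adjusted p = 0.053).

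SRPK1 read 302.1 and 296.9 CPM untreated and 297.1 and 306.8 treated, a log2 fold change of 0.01 with a 95% interval from -0.05 to 0.07. SRPK2 (0.03, interval -0.05 to 0.12) and PRPF4B (0.02, interval -0.04 to 0.08) were likewise not called, and the groups of all 3 overlapped.

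**Figure D3:**
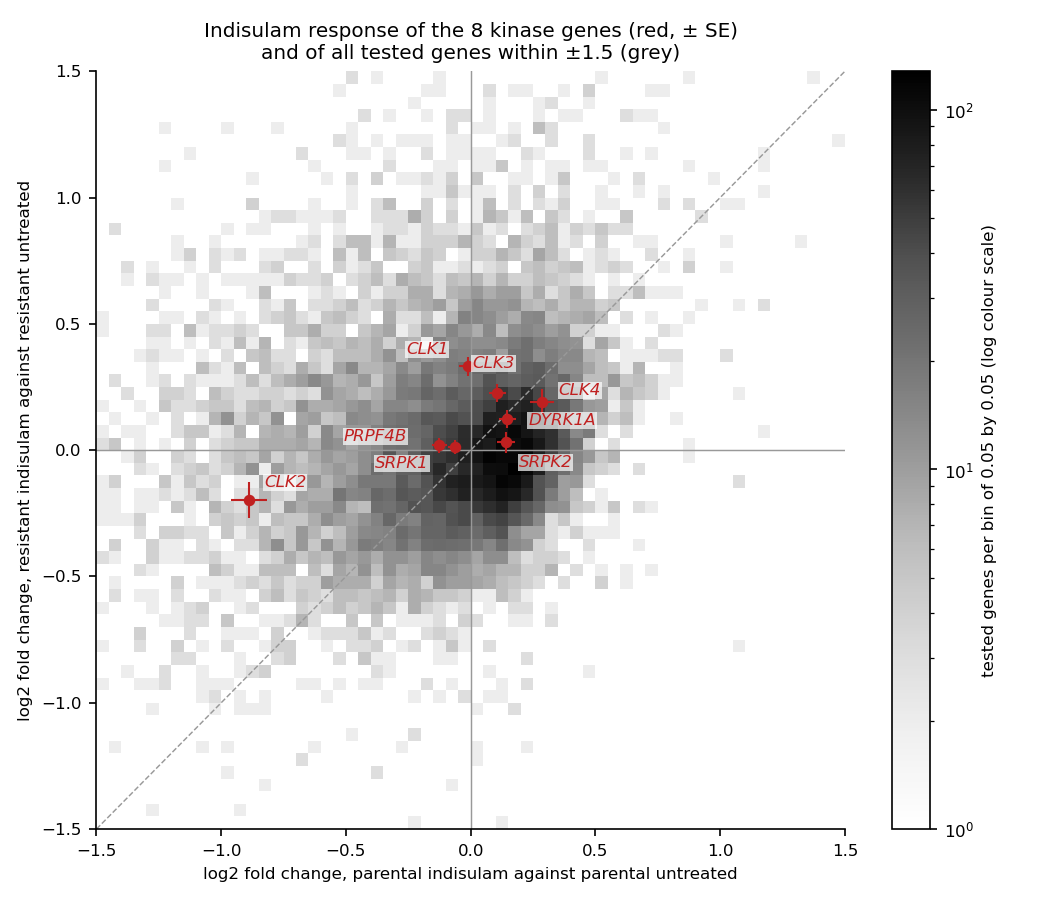
Log2 fold change on indisulam in parental cells (horizontal) against that in resistant cells (vertical). Grey squares count tested genes in bins of 0.05 by 0.05 on a log colour scale, red points are the 8 kinase genes with their SE, and the dashed line marks equal responses. CLK2 lies far left at -0.89 and -0.20, CLK1 lies above the horizontal at -0.01 and 0.33, and the other kinases stay within 0.3 of 0 on both axes.

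The responses of the lines share no libraries. Parental cells had 18 h of drug against none, and resistant cells continuous drug against a holiday. Line and kind of exposure therefore cannot be told apart here. The difference between the responses was tested as an interaction term. It was called for 4 of 8 kinases, CLK2, CLK1, PRPF4B and CLK3 (0 lower, also at an unadjusted p under 0.05), where 50.1% of the tested genes were called, and all 4 had the higher value in resistant cells, as 22.7% of tested genes did against 27.5% with the lower. CLK2 was past 0.5 log2 units, as 16.4% of tested genes were. For CLK2 the responses differed by 0.69 log2 units (SE 0.10, 95% interval 0.46 to 0.92, edgeR adjusted p = 0.00051), and this was called in all 16 alternatives, with values from 0.59 to 0.83. For CLK1 they differed by 0.34 (SE 0.053, 95% interval 0.23 to 0.45, adjusted p = 1.2e-05), also called in all 16. HCN3, the neighbour of CLK2, differed by 0.67 (adjusted p = 3.7e-07).

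PRPF4B differed by 0.14 (SE 0.041, edgeR adjusted p = 0.0051) and was called in all 16 alternatives, reaching 0.26 with library totals alone. CLK3 differed by 0.12 (adjusted p = 0.049) and was called in 8 of 16. Leaving out parental untreated replicate 1 (0.13, adjusted p = 0.099), parental untreated replicate 2 (0.11, adjusted p = 0.16), parental indisulam replicate 2 (0.13, adjusted p = 0.062), resistant untreated replicate 1 (0.12, adjusted p = 0.071) or resistant indisulam replicate 1 (0.10, adjusted p = 0.14) ended the CLK3 call, while without resistant indisulam replicate 2 it was 0.18 (adjusted p = 0.008). For SRPK1 the difference was 0.08 with a 95% interval from -0.0039 to 0.16 (adjusted p = 0.11). It was called without resistant untreated replicate 1 (0.11, adjusted p = 0.032) or resistant indisulam replicate 1 (0.12, adjusted p = 0.036), and reached 0.19 (adjusted p = 0.00027) with library totals alone. SRPK2 (-0.11, interval -0.23 to 0.0048), CLK4 (-0.09, interval -0.23 to 0.05) and DYRK1A (-0.02, interval -0.13 to 0.08) were not called.

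The third comparison set the lines against each other off the drug. SRPK2, which shares the cytoplasmic role of SRPK1, stood at 0.737 of its parental level in resistant cells. CLK1, PRPF4B, CLK3, DYRK1A and SRPK1 were lower by smaller amounts, CLK4 was higher, and CLK2 was not called. That made 1 kinase higher and 6 lower, 7 of 8 called where 60.1% of the tested genes were, 30.3% higher and 29.9% lower. No kinase was called past 0.5 log2 units, as 24.6% of tested genes were. The median of the 8 was -0.15, beside -0.02 for all tested genes.

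SRPK2 read 37.8 and 38.9 CPM in parental untreated and 27.7 and 28.9 in resistant untreated libraries. The log2 fold change was -0.44 (SE 0.039, 95% interval -0.52 to -0.36), with an edgeR adjusted p of 8.5e-10, and it was called in all 16 alternatives. KMT2E, which overlaps SRPK2 on the opposite strand by 369 exon bases and held 75.0% of the reads of the pair, was lower by a log2 fold change of -0.17 (adjusted p = 7.5e-05). The part of its reads in the SRPK2 value was not tested.

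CLK1 (-0.17, edgeR adjusted p = 0.00034), PRPF4B (-0.16, adjusted p = 5.3e-05) and CLK3 (-0.15, adjusted p = 0.00092) were each called lower in all 16 alternatives. DYRK1A (-0.11, adjusted p = 0.012) lost its call without parental untreated replicate 1 (-0.11, adjusted p = 0.061), parental untreated replicate 2 (-0.10, adjusted p = 0.071) or resistant untreated replicate 1 (-0.08, adjusted p = 0.13). SRPK1 (-0.10, adjusted p = 0.004) lost it without parental untreated replicate 2 (-0.09, adjusted p = 0.067) or resistant untreated replicate 2 (-0.07, adjusted p = 0.058). The libraries of the lines did not overlap for any of the 8 kinases, as for 79.5% of tested genes.

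CLK4 was the exception in direction, with 20.04 and 20.48 CPM in parental and 20.9 and 23.4 in resistant untreated cells (log2 fold change 0.12, edgeR adjusted p = 0.03). Its call held in 9 of 16 alternatives, and the value was 0.05 (adjusted p = 0.39) without resistant untreated replicate 2 and 0.21 (adjusted p = 0.0015) without resistant untreated replicate 1. Each of parental untreated replicate 1 (0.11, adjusted p = 0.15), parental untreated replicate 2 (0.14, adjusted p = 0.062), resistant indisulam replicate 1 (0.11, adjusted p = 0.067) and resistant indisulam replicate 2 (0.11, adjusted p = 0.065) also ended it when left out. CLK2 was at -0.17 (95% interval -0.32 to -0.01, adjusted p = 0.066). It was called in 6 of 16 alternatives, and the 2 resistant untreated libraries pulled it apart. It was called lower at -0.28 (adjusted p = 1.3e-05) without resistant untreated replicate 2, and was at -0.05 (adjusted p = 0.41) without resistant untreated replicate 1.

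The fourth comparison set the lines against each other on the drug. CLK2 was 1.44-fold and CLK1 1.12-fold higher in resistant cells, while SRPK2 was at 0.683 and DYRK1A at 0.914 of the parental level. The other 4 kinases were not called, so 2 were called higher and 2 lower where 69.5% of the tested genes were called, 34.6% higher and 34.9% lower. Libraries did not overlap for 5 of 8 kinases, as for 83.8% of tested genes. CLK2 and SRPK2 were called past 0.5 log2 units, as 31.7% of tested genes were. This comparison shares its libraries with the drug responses above.

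CLK2 read 23.1 and 22.2 CPM in parental indisulam and 33.5 and 31.8 in resistant indisulam cells, a difference of 0.52 log2 units (SE 0.075, edgeR adjusted p = 0.00023). SRPK2 read 41.9 and 42.7 against 27.9 and 29.7 CPM, a difference of -0.55 log2 units (SE 0.039, adjusted p = 1.1e-11). Both pairs of groups were far apart and both calls held in all 16 alternatives. CLK1 differed by 0.17 (adjusted p = 0.00035), again in all 16. DYRK1A differed by -0.13 (adjusted p = 0.002), but by -0.08 (adjusted p = 0.11) without parental indisulam replicate 2.

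SRPK1 was at 305.4 and 307.2 CPM in parental indisulam and at 297.1 and 306.8 in resistant indisulam libraries, a log2 fold change of -0.02 with a 95% interval from -0.08 to 0.04. CLK3 (-0.03), CLK4 (0.03) and PRPF4B (-0.01) were also not called. With a correction for GC content and length all 8 kinases were called in this comparison. Of 16599 genes 11808 were then called, in place of 11579 of 16661 (69.5%). CLK1 was then at 0.34, CLK4 at 0.15 and PRPF4B at 0.09 in the higher direction, and CLK3 at -0.13 and SRPK1 at -0.06 in the lower.

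**Figure D4:**
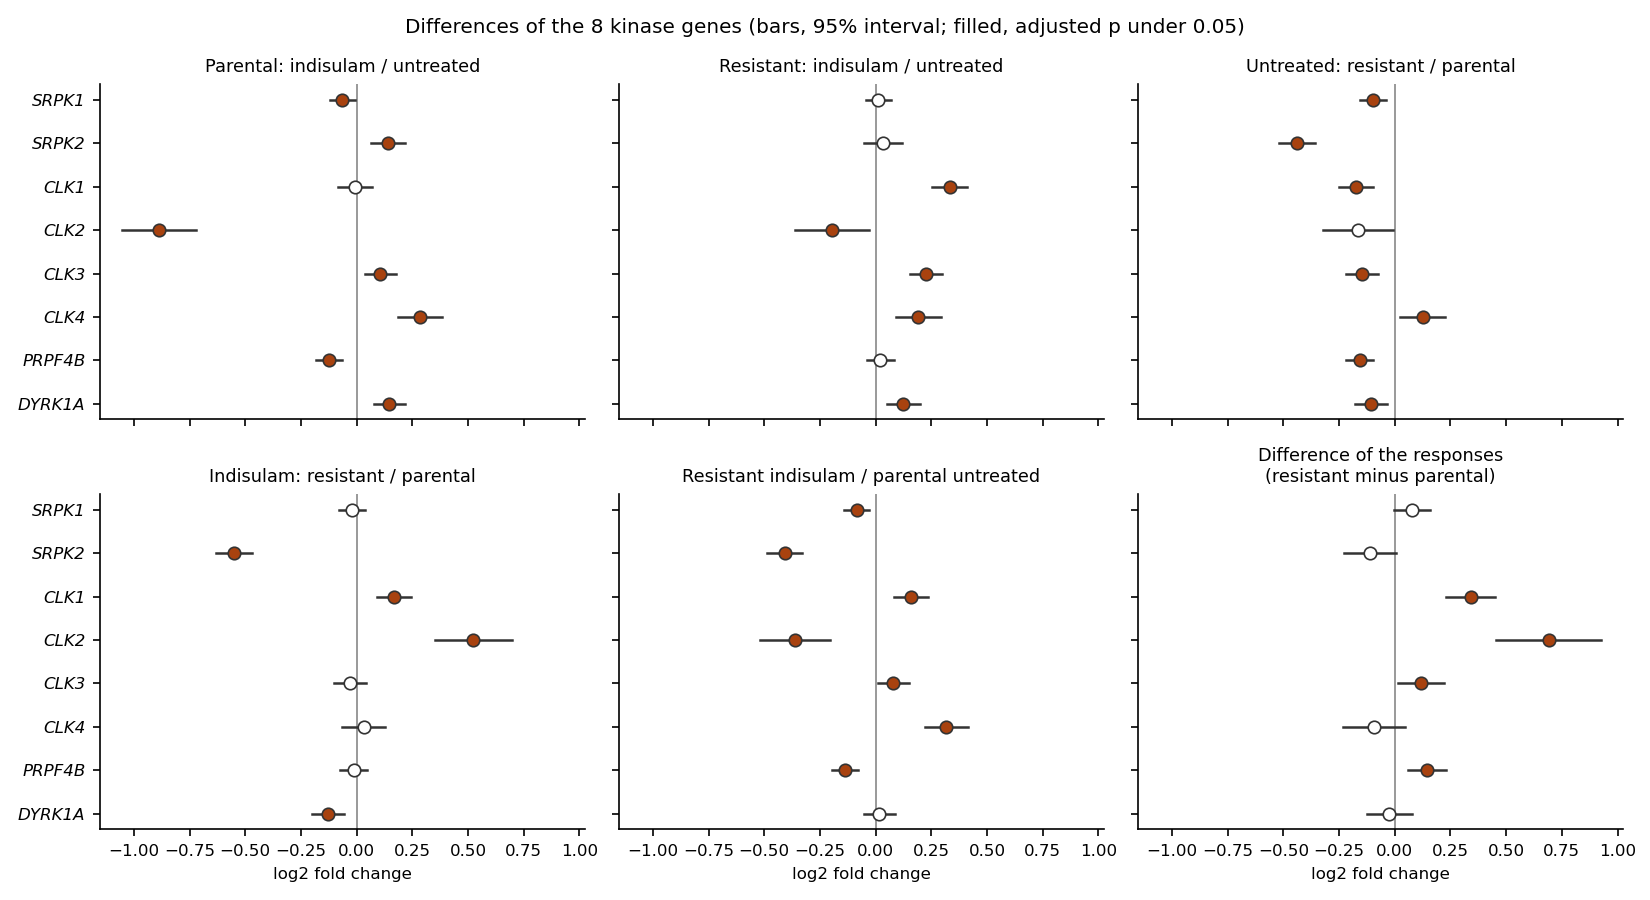
Log2 fold change of each kinase gene in 5 comparisons and in the difference of the drug responses (points; bars, 95% interval; filled points, adjusted p under 0.05). CLK2 at -0.89 in parental cells and SRPK2 at -0.44 and -0.55 between the lines lie farthest to the left.

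Resistant cells on the drug were last set against untreated parental cells, which share the libraries of the comparisons above. CLK4 (log2 fold change 0.32, edgeR adjusted p = 2.7e-06), CLK1 (0.16, adjusted p = 0.0005) and CLK3 (0.08, adjusted p = 0.044) were higher. SRPK2 (-0.41, adjusted p = 1.9e-09), CLK2 (-0.36, adjusted p = 0.0014), PRPF4B (-0.14, adjusted p = 0.0002) and SRPK1 (-0.09, adjusted p = 0.0091) were lower. DYRK1A was not called, so 3 were called higher and 4 lower where 64.8% of the tested genes were called, 32.2% higher and 32.6% lower. None was past 0.5 log2 units, as 27.4% of tested genes were, and libraries did not overlap for 8 of 8, as for 83.3%. CLK3 lost its call without parental untreated replicate 1 (0.07, adjusted p = 0.21), parental untreated replicate 2 (0.09, adjusted p = 0.11) or resistant indisulam replicate 1 (0.02, adjusted p = 0.66), and SRPK1 without parental untreated replicate 2 (-0.08, adjusted p = 0.1).

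The genes of the SR proteins, the protein class on which SRPKs and CLKs act, were read beside the kinase genes. Of 14 genes 13 were tested, and SRSF12 had at most 1 read in a library. On indisulam, 9 rose and 2 fell in parental cells, with a median of 0.16, where 31.6% of all tested genes rose and 26.6% fell. In resistant cells 5 rose and 3 fell, with a median of 0.03, where 24.9% of all tested genes rose and 25.8% fell. The difference of the responses was called lower in resistant cells for 10 and higher for 1, beside 27.5% and 22.7% of all tested genes.

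SRSF1, the classical SR protein, was at 115.9 and 117.4 CPM untreated and 165.0 and 169.5 on indisulam in parental cells. Its log2 fold change was 0.52 (SE 0.028, edgeR adjusted p = 5.9e-13), against 0.20 (adjusted p = 3.5e-06) in resistant cells. SRSF5 moved the other way, from 252.0 and 255.9 to 159.2 and 157.5 CPM in parental cells (-0.68, adjusted p = 1.3e-13). In resistant cells SRSF5 was at -0.01 (adjusted p = 0.85), and the responses differed by 0.67 (adjusted p = 1.1e-10).

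SRSF6 fell in both lines, by a log2 fold change of -0.26 (adjusted p = 5.5e-08) in parental and -0.16 (adjusted p = 3.6e-05) in resistant cells. SRSF4 had the largest rise of the list in resistant cells at 0.22 (adjusted p = 7.8e-06), and SRSF8 the largest gap below zero between the responses at -0.33 (adjusted p = 9.3e-06). Between the lines, TRA2A, a splicing regulator of the Tra2 type, was lower in resistant cells, at -0.30 without drug (adjusted p = 9.6e-09) and -0.49 with it (adjusted p = 1.1e-12). Off the drug 4 SR protein genes were higher and 6 lower in resistant cells, beside 30.3% and 29.9% of all tested genes. SRSF8 was the highest there at 0.20 (edgeR adjusted p = 5.8e-05). On the drug 2 were higher and 10 lower, beside 34.6% and 34.9% of all tested genes. Against untreated parental cells, resistant cells on the drug had 3 higher and 4 lower, beside 32.2% and 32.6% of all tested genes. SRSF8 led the higher ones at 0.37 (edgeR adjusted p = 2.7e-09) and SRSF5 the lower ones at -0.21 (edgeR adjusted p = 3.5e-06).

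**Figure D5:**
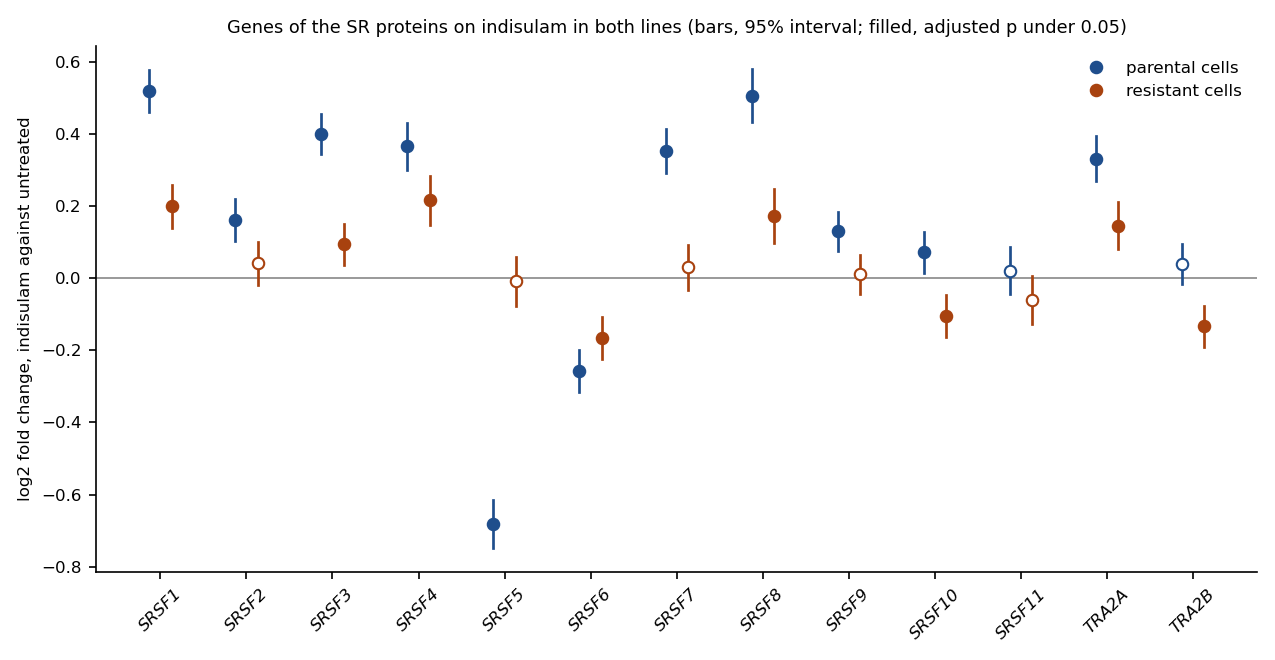
Log2 fold change on indisulam of the 13 tested SR protein genes in parental (blue) and resistant (brown) cells, with 95% intervals (bars) and filled points where the adjusted p is under 0.05. SRSF1 is at 0.52 and 0.20, and SRSF5 is at -0.68 and -0.01.

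Of 9 kinases related to the 8, SRPK3 and HIPK4 had too few reads to be tested. On indisulam 3 of 7 rose and 1 fell in parental cells, with HIPK2 at 0.52 (edgeR adjusted p = 3.2e-12) and DYRK3 at -0.31 (adjusted p = 0.044), where 58.2% of all tested genes were called. In resistant cells 4 rose and 0 fell, where 50.7% were called, with DYRK1B at 0.33 (adjusted p = 0.011) the largest. At an unadjusted p under 0.05 edgeR also gave 0 falls there. The responses differed for DYRK1B by 0.50 (edgeR adjusted p = 0.0076) and for HIPK2 by -0.35 (edgeR adjusted p = 7.6e-07). In all, 1 gene was called higher and 3 lower, beside 22.7% and 27.5% of all tested genes. Between the lines 2 were higher and 2 lower off the drug, beside 30.3% and 29.9% of all tested genes. On it 1 was higher (DYRK1B, 0.58, edgeR adjusted p = 4.1e-05) and 5 were lower, beside 34.6% and 34.9%. DYRK3 was the lowest of both, at -0.88 (adjusted p = 1e-05) and -0.59 (adjusted p = 0.0013), and had no more than 2.15 CPM in any library. HIPK2 was higher off the drug at 0.26 (adjusted p = 1.7e-07). Resistant cells on the drug had 4 higher and 3 lower than untreated parental cells, beside 32.2% and 32.6% of all tested genes.

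Among 5 cyclin-dependent kinases that act on RNA polymerase II or on splicing, CDK9, the elongation kinase, fell in both lines on indisulam (-0.15, edgeR adjusted p = 0.00012, and -0.08, adjusted p = 0.026). It was lower in resistant than in parental cells, at -0.44 without drug (adjusted p = 5.7e-12) and -0.37 with it (adjusted p = 1.2e-10). CDK12 rose in parental cells (0.21, adjusted p = 3.1e-06) and was not called in resistant ones (-0.02, adjusted p = 0.54). CDK13 fell in resistant cells (-0.14, adjusted p = 0.002) and was lower there than in treated parental cells at -0.41 (adjusted p = 1.6e-10). Over the 5 genes, 2 rose and 1 fell in parental cells, where 58.2% of all tested genes were called, and 0 rose and 2 fell in resistant cells, where 50.7% were. Resistant cells had 0 higher and 2 lower untreated, beside 30.3% and 29.9% of all tested genes. Treated, they had 0 and 4, beside 34.6% and 34.9%. When treated cells met untreated parental ones there were 0 and 2, beside 32.2% and 32.6%. The responses differed with 0 higher and 3 lower, led by CDK12 at -0.23 (adjusted p = 0.0001), where 50.1% of all tested genes were called. The uncertain CDK11B is among the rises in parental cells, the falls between the treated lines and the lower responses. Each of these counts of 0 was also 0 at an unadjusted p under 0.05. Values of CDK11A and CDK11B, near-identical copies, are uncertain and are not given.

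Of 9 phosphatases and import or anchoring partners of SR proteins, 7 rose and 0 fell on indisulam in parental cells, led by PPP2CA, a catalytic subunit of protein phosphatase 2A, at 0.36 (edgeR adjusted p = 3e-10), where 31.6% of all tested genes rose and 26.6% fell. In resistant cells 2 rose and 3 fell, where 24.9% and 25.8% of all tested genes did, with PPP1CB, a catalytic subunit of protein phosphatase 1, at 0.19 (adjusted p = 1.8e-05) and HSPA8, the constitutive heat shock chaperone, at -0.15 (adjusted p = 0.00029). The difference of the responses was called lower in resistant cells for 7 of 9 and higher for 0, also 0 by edgeR at an unadjusted p under 0.05, with DNAJC8 at -0.45 (adjusted p = 2.2e-07), beside 27.5% and 22.7% of all tested genes. TNPO3, the importin that carries phosphorylated SR proteins into the nucleus, was lower in resistant cells, at -0.28 without drug (adjusted p = 3.6e-09) and -0.54 with it (adjusted p = 2.3e-14). Between the lines 2 genes were higher and 3 lower off the drug, beside 30.3% and 29.9% of all tested genes. On the drug 1 was higher (PPP1CB) and 7 were lower, beside 34.6% and 34.9%. For treated resistant against untreated parental cells 3 were higher and 5 lower, beside 32.2% and 32.6%.

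The genes most like SRPK1 and CLK1 over the 8 libraries were found among 8810 genes of at least 10 CPM, by the distance between centred log2(CPM + 1) profiles. For SRPK1 they were ZKSCAN1 (distance 0.0451), ARFGEF1 (0.0459) and BIVM (0.0524), against a length of the SRPK1 profile itself of 0.113. For CLK1 they were SLX4 (0.0867), ATG2A (0.0988) and MNT (0.102), against 0.334. CLK2 was added after its values were seen, and the nearest profile was that of CCNL2 (0.121, against 0.930). Among the 8 kinases, SRPK1 and PRPF4B were the nearest pair (0.104, against own lengths of 0.113 and 0.180). SRPK2 and CLK2 were the farthest (1.39, against 0.701 and 0.930). This distance also depends on how much each gene varied.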

How the data were processed

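The authors deposited one table of raw counts for every library, with a count for each gene. Libraries were stranded and made from polyadenylated RNA. The submitters' processing notes name HISAT2 2.2.1, Picard, HTSeq and GRCh38 without their roles. For its splicing analysis the study gives SeqPurge trimming and HISAT2 alignment. The annotation release and the strand setting of the counting are not given in the sources used here. Reads of overlapping genes that share exon bases (KMT2E, EDC3) could therefore shift SRPK2 and CLK3. HCN3 shares no exon base with CLK2 in the annotation used here, and its part in the CLK2 value was not tested. The 9 lines that name no gene stayed out of totals and tests, and ambiguous reads were 5.61% to 7.33%.

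Symbols, positions and coding sequences came from GENCODE 44 on GRCh38, which matched 60419 of 60675 identifiers. Counts were tested in edgeR 4.0.16 (R 4.3.3) with filterByExpr, TMM, a robust quasi-likelihood fit of 4 group means on all 8 libraries (4 residual degrees of freedom) and Benjamini-Hochberg adjustment over 16661 genes. With 2 libraries per group, the smallest exact permutation p is 0.333, so none was run. Alternatives were DESeq2 1.42.0 (size factors, Wald test), library totals, dropping the filter or asking for a mean of 1 CPM, a replicate block, a GC and length correction with mgcv 1.9.3 (99.6% of tested genes had both) with and without the block, and each library left out. Scripts were tested on simulated data.

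All 8 kinases are named. From each context list, called genes with the largest rise or fall are named for some comparisons and not for all, along with other genes of the list. Members and lists were chosen with earlier results of these data known. Splicing and protein sequences were not analysed here. Figures were drawn with matplotlib 3.10.9.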

Additional observations from a re-analysis of the deposited data

Results flagged for a closer look

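The response to indisulam differed between resistant and parental cells, by edgeR's interaction term, for 4 of the 8 kinase genes, a share near that of all tested genes (50.1%). Exposure also differed, 18 h in parental and continuous in resistant cells, so it cannot be told apart from the line. On the log2 scale CLK2 differed by 0.69, CLK1 by 0.34, PRPF4B by 0.14 and CLK3 by 0.12. HCN3, on the opposite strand of CLK2, differed by 0.67. CLK3 and PRPF4B are small differences, and that of CLK3 was called in 8 of 16 alternatives.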

How the results depend on the processing

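Of 768 values of the 8 kinases under 16 alternatives, 648 kept direction and call. With the direction kept, 57 lost a call and 22 gained one. Another 41 turned direction and were counted as such whether called or not. The causes were not tested. Genes called in a comparison stayed within 1.5 times of 9690, 8446, 10021, 11579, 10798 and 8351, also by DESeq2 (7984, 6762, 8435, 10162, 9049 and 6742), for the drug in parental cells, the drug in resistant cells, the lines off the drug, the lines on it, treated resistant against untreated parental cells and the difference of responses. For the lines on the drug, 8 kinases rather than 4 were called with the GC and length correction, with and without the block. Without the block 5108 genes were called higher and 6700 lower there, of 16599. With 1 library left out, 3 to 5 kinases were called for the drug in resistant cells (3 without resistant untreated replicate 1) and 4 to 7 for the lines off the drug (4 without parental untreated replicate 2).

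Between the lines on the drug, library totals turned SRPK1 to 0.0672, CLK3 to 0.0601 and PRPF4B to 0.0752, a mean CPM of at least 1 turned them to 0.0585, 0.0513 and 0.0665, and no filter turned SRPK1 to 0.0043 and PRPF4B to 0.0123. The GC and length correction gave PRPF4B 0.0931, and 0.0932 with the block. For treated resistant against untreated parental cells it gave CLK3 -0.0110 (-0.0098 with the block) and DYRK1A -0.0192 (-0.0186). In the difference of responses, library totals gave SRPK2 0.0050, CLK4 0.0218 and DYRK1A 0.0912, a mean CPM of at least 1 gave DYRK1A 0.0606, and the correction gave CLK4 0.0105 (0.0085 with the block) and DYRK1A 0.0374 (0.0380). CLK3 in treated resistant against untreated parental cells was the only one of these called in the analysis as reported. For the lines on the drug, SRPK1 was called in 3 of 16 alternatives, 2 of them in the direction as reported. PRPF4B was called there in 4 of 16, always in the turned direction.

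Leaving out each library in turn gave ranges that crossed 0 for values not called, CLK1 for the drug in parental cells (-0.0312 to 0.0028), SRPK1, SRPK2 and PRPF4B for the drug in resistant cells (-0.0139 to 0.0303, -0.0191 to 0.0674 and -0.0098 to 0.0459), SRPK1, CLK3 and PRPF4B for the lines on the drug (-0.0388 to 0.0085, -0.0647 to 0.0210 and -0.0140 to 0.0193), DYRK1A for treated resistant against untreated parental cells (-0.0069 to 0.0211), and CLK4 and DYRK1A for the difference of responses (-0.1525 to 0.0008 and -0.0298 to 0.0191).

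Library totals changed the share of calls that were higher from 54.27% to 42% for the drug in parental cells, from 49.12% to 59.71% in resistant cells, from 49.75% to 59.67% for the lines on the drug and from 45.19% to 65.8% for the difference of responses, whose median over all genes moved from 0.0100 to 0.1254. The GC and length correction changed it from 50.36% to 40.05% for the lines off the drug, and to 39.97% with the block.

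Same-numbered libraries did not deviate together throughout (correlations -0.1925 to 0.1375 over 6 pairs of groups), so the numbers were not taken as pairs. With the replicate block 9537, 8319, 9865, 11472, 10686 and 8206 genes were called. SRPK1 for the drug in parental cells (adjusted p = 0.058), CLK2 for the drug in resistant cells (0.081), and CLK3 for treated resistant against untreated parental cells (0.052) and for the difference of responses (0.058) lost their calls, and no other kinase call changed with the block alone. The MANE Select transcript as gene length was chosen after seeing the data. CLK4 had the fewest reads of the 8, 1519 to 2413 per library, but the standard error was larger for CLK2 in each comparison, so small differences were hardest to see for CLK2.

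Some values kept their call but moved by over 1.5 times. With the GC and length correction PRPF4B was at -0.22, CLK4 at 0.19 and SRPK2 at 0.08 for the drug in parental cells, SRPK1 at -0.18, CLK3 at -0.28 and DYRK1A at -0.18 for the lines off the drug, and SRPK1 at -0.14 for treated resistant against untreated parental cells. With library totals PRPF4B was at -0.19, SRPK1 at -0.13 and DYRK1A at 0.08 for the drug in parental cells, CLK1 at 0.26 for the lines on the drug and CLK3 at 0.23 for the difference of responses.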
